A study of Homo sapiens with 12 samples.

Results

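Glutamate, the main excitatory transmitter of the brain, acts on ion channels and on G protein-coupled receptors. The genes described here are 34 of these receptors and of the proteins that travel with them: 4 AMPA receptor subunits (GRIA1 to GRIA4), 7 NMDA receptor subunits (GRIN1, GRIN2A to GRIN2D, GRIN3A and GRIN3B), 5 kainate receptor subunits (GRIK1 to GRIK5), 1 delta receptor (GRID1), 7 metabotropic receptors (GRM2 to GRM8) and 10 auxiliary subunits (CACNG2, CACNG3, CACNG4, CACNG5, CACNG7, CACNG8, CNIH2, CNIH3, NETO1 and NETO2). They were chosen by gene symbol, and all 34 were found among the 59653 symbols of the count table. After the filter on low counts 30 of them could be tested, beside 24671 genes in all.

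Total RNA was sequenced from neurons grown out of induced pluripotent stem cells that were reprogrammed from IMR-90, a human fibroblast line. The siNC group holds 6 libraries of cells that received a control siRNA, and the siZCC group 6 libraries of cells that received an siRNA against ZCCHC17, a zinc knuckle protein that the series title links to RNA splicing. All libraries share this single line, and the titles also carry the letters NPC, which the labels do not explain. The labels do not say whether libraries of a group came from separate cultures, so p-values measure the spread between these libraries, which may be technical.

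AMPA receptors carry most fast excitatory current. NMDA receptors open when glutamate and depolarization coincide and let calcium in, kainate receptors act both before and after the synaptic cleft, and metabotropic receptors signal through G proteins. Auxiliary subunits decide how much of the channel reaches the surface and how it gates: the CACNG genes here encode TARPs (transmembrane AMPA receptor regulatory proteins), CNIH2 and CNIH3 encode cornichons of AMPA receptors, and NETO1 and NETO2 bind kainate receptors. Which subunits assemble sets calcium entry, since a single position in the pore loop is held by glutamine in AMPA and kainate subunits and by asparagine in most NMDA subunits, and since the RNA of GRIA2 is edited at that codon to encode arginine, mainly by the enzyme of ADARB1.

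The sequence around this pore position is shown for the AMPA subunits, for GRIN2D and for the kainate subunits that passed the test. The stretches below, of 51 bases each, come from spliced transcripts of GENCODE v29 on GRCh38. Those of GRIA1 to GRIA4, GRIK1 and GRIK3 join 2 exons, and those of GRIN2D and GRIK4 lie in 1 exon. All run 5′ to 3′ along the coding strand, with the codon of the pore position in capitals.
GRIA1: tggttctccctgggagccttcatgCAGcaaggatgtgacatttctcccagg
GRIA2: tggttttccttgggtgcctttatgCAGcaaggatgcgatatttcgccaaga
GRIA3: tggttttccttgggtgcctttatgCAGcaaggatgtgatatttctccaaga
GRIA4: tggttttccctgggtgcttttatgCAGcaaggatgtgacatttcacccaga
GRIN2D: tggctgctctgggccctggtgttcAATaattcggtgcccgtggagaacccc
GRIK1: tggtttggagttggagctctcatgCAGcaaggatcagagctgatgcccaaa
GRIK3: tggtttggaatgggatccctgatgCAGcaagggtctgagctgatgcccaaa
GRIK4: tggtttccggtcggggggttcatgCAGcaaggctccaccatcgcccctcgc
The capital codons lie in coding exons, at chr5:153706042-153706044 (plus strand) in GRIA1, chr4:157336722-157336724 (plus) in GRIA2, chr11:105924744-105924746 (plus) in GRIA4 and chr19:48419647-48419649 (plus) in GRIN2D. GRIA1 and GRIA2 share 42 of the 51 bases, GRIA2 and GRIA3 share 49, and GRIK1 and GRIK4, which both rose, share 29. GRIK3, which fell, shares 44 with GRIK1 and 26 with GRIK4. Counts per gene do not show which base was read at the edited codon, and editing was not analysed here.

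The siNC libraries held between 90755953 and 120023356 counts and the siZCC libraries between 76115083 and 105389055. These ranges overlap only through siNC replicate 4. The other siNC libraries, with 109973707 or more, were all larger than every siZCC library. ZCCHC17 itself fell in siZCC, from 53.99 to 60.99 CPM (counts scaled to library size) in siNC to 9.37 to 10.6 CPM (log2 fold change -2.51, SE 0.0402, adjusted p 3.52e-17). In each group 3 libraries had IL1B counts from 449 to 1512 and 3 had counts from 2 to 12. The results below are therefore also given within each side of this division where that ends a call. Markers of several cell types were present. Neuron markers summed to 2697 to 3107 CPM in siNC and 2479 to 2842 CPM in siZCC, neural progenitor markers to 5311 to 5638 and 5422 to 5904 CPM, astrocyte markers to 1627 to 1851 and 1686 to 2007 CPM, and markers of GABAergic neurons to 316 to 348 and 301 to 339 CPM. The largest terms of these sums, by siNC mean, were MAP2 (1027 CPM), VIM (3550 CPM), GFAP (616 CPM) and GAD1 (237 CPM). The neuron markers RBFOX3 (1.27 CPM) and TUBB3 (14.2 CPM) were low. Such sums do not measure numbers of cells. Among 7 markers of glutamatergic neurons, summing to 73.98 to 79.9 and 68.9 to 76.9 CPM, NEUROD6 and TBR1 were under 1 CPM, and so were all of 5 microglial markers except CSF1R, which was near 1 CPM.

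Of the 30 tested genes, 12 (40%) passed an adjusted p of 0.05, 5 higher and 7 lower in siZCC, against 22.2% of all tested genes called in either direction (10.8% lower, 11.4% higher). The share over all genes depends on the filter. With a mean count of at least 50 required, all 30 genes stayed in the test and 13 passed, beside 30.2% of all genes then tested. The median log2 fold change of the 30 genes was 0.0089 and that of all tested genes -0.0016. The 7 that fell were CACNG5, GRID1, GRIN2A, GRIK3, GRIA1, GRIA4 and CACNG8, and the 5 that rose were GRIK1, GRIN2D, CNIH3, GRIK4 and CACNG7. Of the 30 tested genes, 7 had every siZCC library below every siNC library (4.50% of all tested genes did). Another 4 had every siZCC library above every siNC library (5.25% of all tested genes). These were the 7 falls and 4 of the 5 rises. Calls and separation come from the same libraries, so the separation is not separate evidence for the calls. The changes were small, from 68.97% of the siNC level in CACNG5 to 141% in GRIK1. By class, 2 of 4 AMPA genes, 2 of 6 tested NMDA genes, 3 of 5 kainate genes, the delta gene, 0 of 5 tested metabotropic genes and 4 of 9 tested auxiliary genes passed. The median log2 fold change was -0.07 over the AMPA genes, 0.07 over the tested NMDA genes, 0.01 over the kainate genes, -0.14 over the tested metabotropic genes and 0.01 over the tested auxiliary genes. In bulk RNA, fewer cells of a type and less RNA per cell cannot be told apart, and all 6 markers of dividing cells also fell, from 531 to 608 CPM summed in siNC to 407 to 482 CPM in siZCC, while 3 of 8 progenitor markers rose (SOX2, PAX6 and HES5). The part of these markers in the results was not tested.

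**Figure D1:**
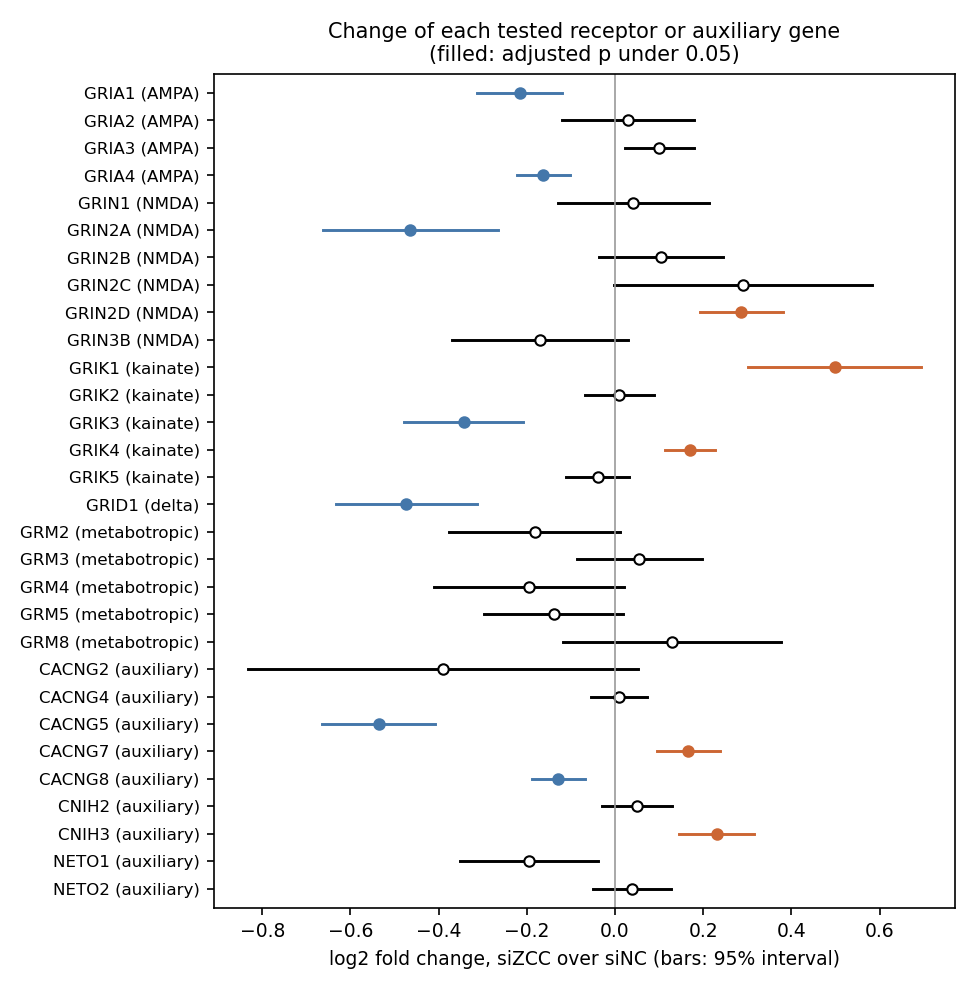
Log2 fold change of siZCC over siNC (horizontal axis) for each of the 30 tested genes, with 95% intervals as bars; filled points passed an adjusted p of 0.05, blue lower and orange higher, and open black points did not pass. Calls go in both directions within the NMDA, kainate and auxiliary classes, and CACNG5 at -0.54 and GRIK1 at 0.50 are the ends of the range.

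Levels were compared between genes per kilobase of exon (CPM per kb). In siNC the auxiliary class held the highest values, with CACNG4 at 103 ± 3.75, CACNG7 at 72.3 ± 2.43 and CACNG5 at 67.3 ± 2.07 CPM per kb (SD, n = 6). Among the receptors GRIA1 led with 51.4 ± 4.30 CPM per kb (SD, n = 6), followed by GRM3 at 22.5 and GRIK5 at 16.7 CPM per kb. By the longest transcript in place of all exon bases, GRIA1 came to 68.8, CACNG5 to 67.3, GRIK5 to 23.9 and GRM3 to 23.6 CPM per kb, so the order within each of these pairs depends on the length used. Of 34 genes, 4 were not tested because of low counts. These were GRIN3A, a subunit that lowers calcium entry through NMDA receptors (7 to 18 counts per library in siNC, 3 to 9 in siZCC), the metabotropic receptors GRM6 (7 to 11 and 3 to 14) and GRM7 (0 to 2 and 0 to 4), and the TARP CACNG3 (0 to 1 in each group). Each of the other 30 genes was above the filter level of 0.0997 CPM in every library, so none entered through 1 group alone. Reads may be shared where genes overlap on opposite strands, since the strand setting of the counting is not known. Among called genes this touches 3.31% of the exon bases of GRID1 (with AC022028.2) and 1.06% of GRIK1 (with BACH1). In CNIH3 it touches 2.11% (with WDR26), 2.05% (with AC096537.2) and 1.77% (with AL596330.1). Among genes that did not pass it touches, for example, 9.81% of CNIH2 (with YIF1A), 8.96% of GRM3 (with AC005009.2) and 2.59% of GRIN3B (with TMEM259).

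**Figure D2:**
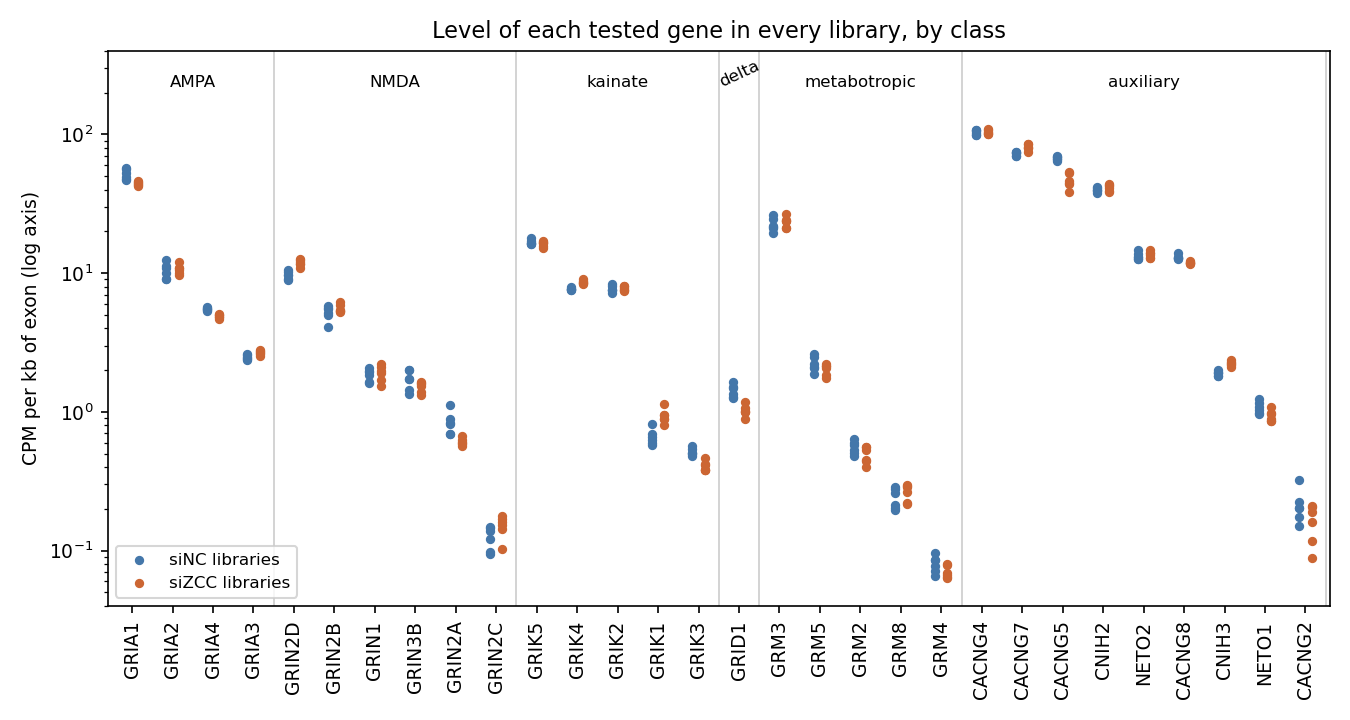
Level of each of the 30 tested genes in every library, in CPM per kb of exon on a log axis, ordered within class by the siNC mean; blue points are the 6 siNC libraries and orange points the 6 siZCC libraries. Levels run from GRM4 near 0.0802 to CACNG4 near 103 CPM per kb in siNC, and the shift between groups is small beside that span.

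Among AMPA subunits, GRIA1 and GRIA4 fell while GRIA2 and GRIA3 did not pass the test. GRIA1, the subunit with the highest level per length in this class, ran from 356 to 433 CPM in siNC (median 389) and from 324 to 354 CPM in siZCC (median 337). Every siZCC library was below every siNC library, and the siNC libraries were the more scattered. Its log2 fold change was -0.22 (SE 0.0456, adjusted p 0.00275), on 24637 to 50394 counts per library. GRIA4, a subunit with fast kinetics, stood at 53.8 to 57.03 CPM in siNC (median 55.1) and 47.2 to 51.5 CPM in siZCC (median 49.5). Its groups did not overlap either, with a log2 fold change of -0.16 (SE 0.0281, adjusted p 5.99e-04). Within the 6 libraries of low IL1B the GRIA1 call was lost (-0.19, adjusted p 0.0839), and within those of high IL1B the GRIA4 call was lost (-0.14, adjusted p 0.0866).

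GRIA2, whose edited form blocks calcium entry, had 80.97 to 112 CPM in siNC (median 93.7) and 86.7 to 108 CPM in siZCC (median 95.9). All 6 siZCC values lay inside the siNC range, and the difference was 0.03 on the log2 scale (95% interval -0.12 to 0.18). GRIA3 ran from 15.3 to 16.99 CPM in siNC and from 16.3 to 18.00 CPM in siZCC, with 4 of 6 siZCC libraries above all siNC libraries. Its log2 fold change of 0.10 (SE 0.0371) did not pass, with an adjusted p of 0.0613, and 5 of 24 alternative settings called it, among them DESeq2's Wald test at 0.0460.

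The make-up of the AMPA class followed from these values. Per length, GRIA1 made up 73.5% ± 2.64 of the class in siNC and 70.8% ± 1.55 in siZCC (SD, n = 6 each). The GRIA2 share was 15.04% ± 2.172 in siNC and 17.1% ± 1.29 in siZCC, and for both shares the groups overlapped. The GRIA3 share, 3.18 to 3.89% in siNC and 3.97 to 4.47% in siZCC, was higher in every siZCC library. Summed per length, the 4 genes reached 65.8 to 75.98 CPM per kb in siNC and 60.8 to 64.4 CPM per kb in siZCC, so the class total was lower in each siZCC library than in any siNC library. These shares and sums are descriptions without a test.

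NMDA receptors need GRIN1 and, in most cases, GRIN2 subunits, of which GRIN2B and GRIN2D are known as early forms and GRIN2A as the form that rises with maturation. In these libraries 2 of the GRIN2 genes moved in opposite directions. GRIN2D had 45.1 to 53.7 CPM in siNC (median 49.6) and 55.1 to 64.01 CPM in siZCC (median 60.2). Every siZCC library was above the highest siNC library, at a log2 fold change of 0.29 (SE 0.0445, adjusted p 2.50e-04). GRIN2A stood at 11.5 to 18.8 CPM in siNC (median 13.7) and 9.51 to 11.2 CPM in siZCC (median 10.01). All siZCC values were below all siNC values although the siNC values were widely spread, and the log2 fold change was -0.46 (SE 0.0941, adjusted p 0.00204). In the libraries of high IL1B alone the GRIN2A call was lost, with a log2 fold change of -0.51 and an adjusted p of 0.0763.

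The obligatory subunit GRIN1 ran from 10.8 to 13.9 CPM in siNC (median 12.7) and from 10.4 to 14.8 CPM in siZCC (median 13.1). Its groups overlapped broadly, with a log2 difference of 0.04 (95% interval -0.13 to 0.21). GRIN2B, with the largest counts of the class, had 126 to 178 CPM in siNC (median 165) and 163 to 192 CPM in siZCC (median 167). The groups overlapped, and its log2 difference of 0.10 did not pass (95% interval -0.04 to 0.25, adjusted p 0.292). GRIN2C, known from cerebellum, was near 1 CPM: the siNC libraries averaged 1.06 ± 0.202 CPM and the siZCC libraries 1.29 ± 0.227 CPM (SD, n = 6 per group), with an adjusted p of 0.148. GRIN3B, a glycine-binding subunit, averaged 5.58 ± 0.886 CPM over the siNC libraries and 4.96 ± 0.428 CPM over the siZCC libraries (SD, n = 6 per group), with an adjusted p of 0.220.

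Of the summed GRIN2 level per length, GRIN2A held 4.06 to 7.11% in siNC and 3.12 to 3.74% in siZCC, without overlap. GRIN2D held 61.2% ± 3.11 and 65.1% ± 1.92, and GRIN2B 32.7% ± 2.59 and 30.7% ± 1.81 (SD, n = 6 each), with overlap in both. The order of GRIN2D and GRIN2B turned on the annotated length, 5093 bases of exon in GRIN2D and 30941 in GRIN2B. Without scaling by length GRIN2B took 71.2% of the GRIN2 counts in siNC and GRIN2D 22.1%. The NMDA class total was 18.3 to 20.4 CPM per kb in siNC and 20.05 to 22.2 CPM per kb in siZCC, with overlap.

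**Figure D3:**
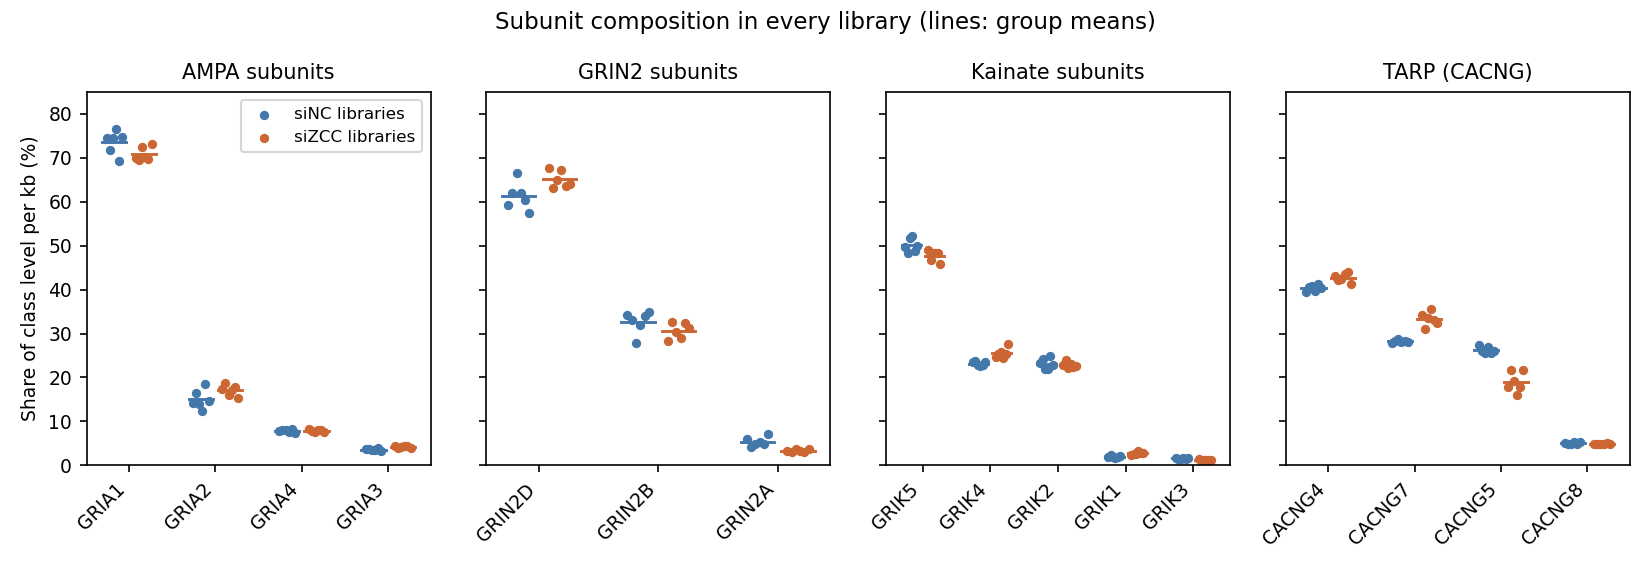
Share of each subunit in the level per kb of its class (vertical axis, percent) in every library, with group means as lines; blue is siNC and orange siZCC, and subunits under 0.5% are not drawn. The shares of GRIN2A and CACNG5 are lower, and those of GRIK4 and CACNG7 higher, in every siZCC library, while GRIA1 and GRIA2 overlap between groups.

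Because GRIN2A and GRIN2D are paralogs that moved apart, the 250 bases before each RefSeq gene start are given, on GRCh38.p14 and along the gene's strand, with matches to the GC box GGGCGG (either strand) in capitals.
GRIN2A, chr16:10182068-10182317 (minus strand): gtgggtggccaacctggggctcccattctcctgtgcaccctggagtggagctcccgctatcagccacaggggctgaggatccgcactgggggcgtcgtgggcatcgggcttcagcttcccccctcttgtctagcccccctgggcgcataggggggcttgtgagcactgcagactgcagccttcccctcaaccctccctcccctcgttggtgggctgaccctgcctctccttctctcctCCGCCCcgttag
GRIN2D, chr19:48393418-48393667 (plus strand): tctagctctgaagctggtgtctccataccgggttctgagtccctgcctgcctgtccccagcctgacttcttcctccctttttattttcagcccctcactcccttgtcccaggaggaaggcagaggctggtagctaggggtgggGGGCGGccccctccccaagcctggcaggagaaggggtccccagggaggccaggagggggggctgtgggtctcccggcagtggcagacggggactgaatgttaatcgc
Each holds 1 GC box, which 42.6% of all 35116 promoters of this length hold, and neither holds TATAAA, which is in 10.7% of them. CpG pairs number 9 in GRIN2A and 5 in GRIN2D, against a median of 11 over all promoters. Over the 24 genes of this group with a promoter in the table, 14 hold a GC box. These matches are descriptions of letters and not of bound factors. GENCODE v29, used for the lengths, places both gene starts elsewhere. There GRIN2A starts at chr16:10182754, so its stretch lies inside the gene. GRIN2D starts at chr19:48394875, which is not next to its stretch. The counts therefore hold for the RefSeq starts only.

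Kainate subunits moved in both directions. GRIK1, a low-affinity subunit that can form channels alone, had the largest rise of all 30 genes, from 2.43 to 3.48 CPM in siNC (median 2.73) to 3.39 to 4.81 CPM in siZCC (median 3.91). The groups overlapped by 1 library, siNC replicate 2, which lay above the lowest siZCC library, and 5 of 6 siZCC libraries were above all siNC libraries. The log2 fold change was 0.50 (SE 0.0931, adjusted p 0.00110), on 222 to 410 counts per library. GRIK4, a high-affinity subunit that needs a low-affinity partner, ran from 56.4 to 59.7 CPM in siNC (median 58.00) and from 63.2 to 68.5 CPM in siZCC (median 64.6). Every siZCC library lay above the siNC range, for a log2 fold change of 0.17 (SE 0.0270, adjusted p 3.09e-04). GRIK3, another low-affinity subunit, had 4.90 to 5.76 CPM in siNC (median 5.12) and 3.83 to 4.70 CPM in siZCC (median 4.04). It fell in every siZCC library relative to every siNC library, by 0.34 on the log2 scale (SE 0.0642, adjusted p 0.00110).

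The other kainate genes did not pass. GRIK5, the second high-affinity subunit and the one with the highest level per length in this class, had 80.7 to 89.3 CPM in siNC (median 82.3) and 75.9 to 84.7 CPM in siZCC (median 82.2), a log2 difference of -0.04 (95% interval -0.11 to 0.03). GRIK2, a low-affinity subunit edited like GRIA2, had 54.4 to 63.3 CPM in siNC (median 57.1) and 56.4 to 61.04 CPM in siZCC (median 58.5), a log2 difference of 0.0095 (95% interval -0.07 to 0.09). Both pairs of groups overlapped. The GRIK4 share of the class per length was 22.6 to 23.7% in siNC and 24.3 to 27.6% in siZCC, higher in each siZCC library, while the class total stayed within 32.3 to 34.2 CPM per kb in siNC and 33.01 to 35.01 CPM per kb in siZCC. Within the libraries of high IL1B the calls of GRIK1 (0.43, adjusted p 0.0847), GRIK3 (-0.27, adjusted p 0.0928) and GRIK4 (0.14, adjusted p 0.0583) were lost, each with its direction kept.

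GRID1, the delta receptor that links the postsynaptic membrane to secreted cerebellins, had 7.48 to 9.80 CPM in siNC (median 8.35) and 5.26 to 6.97 CPM in siZCC (median 5.98). Each siZCC library was below the lowest siNC library, and the log2 fold change was -0.47 (SE 0.0758, adjusted p 3.17e-04). The call held on both sides of the IL1B division. Its ligand genes CBLN1 and CBLN2 were near 1 CPM and did not pass the test.

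Of the 5 tested metabotropic receptors 0 passed in edgeR's test, 0 had an unadjusted p under 0.05, and DESeq2 and limma also called 0. GRM3, an inhibitory receptor also known from astrocytes, made up 87.8% ± 0.467 of the class per length in siNC and 89.1% ± 0.534 in siZCC (SD, n = 6 each), and this share was higher in each siZCC library than in any siNC library. Its level was 87.4 to 118 CPM in siNC (median 97.1) and 93.9 to 119.9 CPM in siZCC (median 106), with overlapping groups and a log2 difference of 0.06 (95% interval -0.09 to 0.20). GRM5, which signals through Gq and calcium stores, had 16.2 to 22.7 CPM in siNC (median 18.8) and 15.2 to 19.2 CPM in siZCC (median 18.2), a log2 difference of -0.14 (95% interval -0.30 to 0.02). Of its exon bases 50.4% are also covered by GRM5-AS1 on the opposite strand, which was counted at 0.0447 CPM in siNC. GRM2, a presynaptic inhibitory receptor, had 3.41 to 4.51 CPM in siNC (median 3.95) and 2.85 to 3.96 CPM in siZCC (median 3.47), with 3 of 6 siZCC libraries below all siNC libraries and a log2 difference of -0.18 (95% interval -0.38 to 0.01). GRM4 and GRM8, also presynaptic, were between 1.04 and 1.93 CPM in every library, with log2 differences of -0.20 and 0.13 and adjusted p of 0.191 and 0.474.

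Of the auxiliary subunits, 3 TARPs and 1 cornichon passed. CACNG5, a type II TARP, gave the largest fall of the 30 genes, from 83.97 to 91.6 CPM in siNC (median 88.3) to 50.3 to 69.6 CPM in siZCC (median 59.1). All siZCC libraries were well below the siNC range, and among them replicate 4 was lowest and replicates 2 and 6 highest. The siZCC values divided by IL1B side, with 50.3 to 58.1 CPM in the high replicates 1, 4 and 5. The low replicates 2, 3 and 6 had 60.1 to 69.6 CPM. In siNC the sides overlapped, and this division of CACNG5 was not tested. The log2 fold change was -0.54 (SE 0.0606, adjusted p 1.41e-05), on 3768 to 10549 counts. Its neighbour on chromosome 17, CACNG4, lies 79423 bases away on the same strand and did not pass: it had 334 to 362 CPM in siNC (median 353) and 341 to 366 CPM in siZCC (median 348), with a 95% interval of -0.06 to 0.07 for the log2 difference.

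The pair on chromosome 19, 19098 bases apart on the same strand, went opposite ways. CACNG7, the other type II TARP, had 194 to 209 CPM in siNC (median 205) and 210.3 to 239 CPM in siZCC (median 226). Each siZCC library lay above each siNC library, with a log2 fold change of 0.17 (SE 0.0340, adjusted p 0.00222). CACNG8, a type I TARP of hippocampal AMPA receptors, had 109.9 to 122 CPM in siNC (median 112) and 101 to 108 CPM in siZCC (median 104). It was lower in each siZCC library, at a log2 fold change of -0.13 (SE 0.0287, adjusted p 0.00394). CACNG2, or stargazin, was under 1.1 CPM in every library and did not pass (-0.39, SE 0.210, adjusted p 0.202). Within the TARPs, per length, the CACNG5 share was 25.5 to 27.5% in siNC and 15.98 to 21.8% in siZCC, and the CACNG7 share 27.8 to 28.7% and 31.1 to 35.5%. The calls of CACNG7 (low IL1B, 0.12, adjusted p 0.108) and CACNG8 (high, -0.10, 0.130; low, -0.16, 0.0627) were lost within sides of the IL1B division, where that of CACNG5 held.

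The cornichons, which raise surface AMPA receptors, gave 1 call. CNIH3 had 11.5 to 12.8 CPM in siNC (median 12.2) and 13.5 to 15.2 CPM in siZCC (median 14.2). Every siZCC library was above the siNC range, at a log2 fold change of 0.23 (SE 0.0404, adjusted p 6.65e-04), which in the libraries of low IL1B alone was 0.24 with an adjusted p of 0.0517. CNIH2 stood higher per length, at 39.9 CPM per kb in siNC against 1.90 for CNIH3 (by the longest transcript 54.2 and 4.74), and its log2 difference was 0.05 (95% interval -0.03 to 0.13). The kainate partners NETO1 (-0.19, SE 0.0743, adjusted p 0.0706) and NETO2 (0.04, SE 0.0415, adjusted p 0.554) did not pass, and NETO1 was below all siNC libraries in 4 of 6 siZCC libraries.

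**Figure D4:**
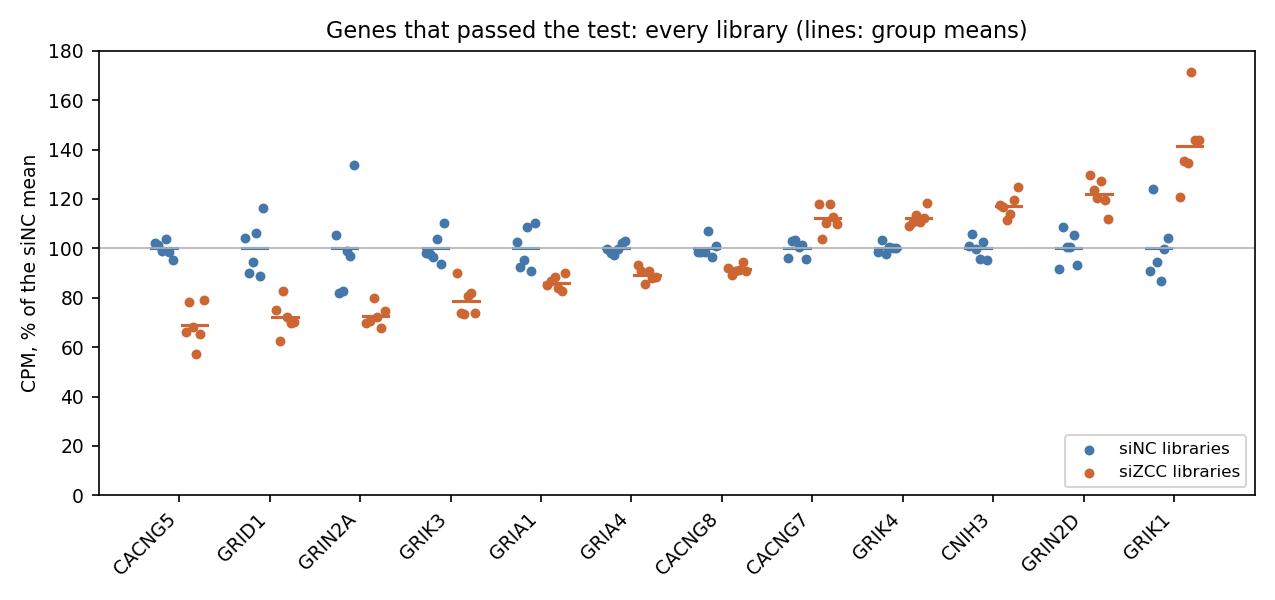
CPM of the 12 genes that passed the test, as a percentage of each gene's siNC mean (vertical axis), in every library; lines mark group means, blue is siNC and orange siZCC. Only GRIK1 overlaps between the groups, and the siZCC means run from about 68.97% in CACNG5 to about 141% in GRIK1.

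Other genes of the glutamate synapse were read from a list of 61 scaffold, assembly, transport, editing and signalling genes. Of 58 tested, 12 rose and 5 fell, or 29.3%, beside 22.2% of all tested genes, and their median log2 fold change was 0.022. With a mean count of at least 50 required, 18 of 56 partner genes passed, beside 30.2% of all genes then tested. Among 19 scaffolds, which anchor receptors below the membrane, 5 (26.3%) rose and 0 fell in edgeR's test. Another 3 were lower at an unadjusted p under 0.05 (DLG3, DLGAP4 and GRIP1). Of these, DLG3 had every siZCC library below every siNC library. It passed as lower under upper quartile scaling, thinning, GC and length offsets and DESeq2's Wald test. The offsets also called DLGAP4 and SHANK1 as lower, and the replicate block called GRIP1 as lower. The 5 scaffolds that rose included DLGAP2 (0.58, SE 0.0805, adjusted p 8.36e-05), DLG4, which encodes PSD-95 (0.16, SE 0.0327, adjusted p 0.00264), SHANK3 and DLGAP1. The DLGAP1 call was lost without the low-count filter, with thinning, on both sides of the IL1B division, and when any of siNC replicates 1, 3 and 4 or siZCC replicates 1, 2, 4 and 5 was left out. DLG4 went from 161 to 183 CPM in siNC (median 173) to 183 to 198 CPM in siZCC (median 193), just above the siNC range in each library. Of 13 tested genes of receptor assembly and trans-synaptic contact, 3 (23.1%) rose and 0 fell, with 1 lower at an unadjusted p under 0.05 (CBLN2). Those that rose were ABHD6, a lipase that limits AMPA receptor delivery (0.29, SE 0.0426), and the pentraxins NPTXR (0.22, SE 0.0583) and NPTX1 (0.23, SE 0.0713), which cluster AMPA receptors, with adjusted p of 1.73e-04, 0.0128 and 0.0286. The NPTX1 call was lost when any of siNC replicates 1, 3 and 6 or siZCC replicates 1, 4 and 5 was left out, with log2 fold changes for NPTX1 from 0.19 to 0.22 in those fits.

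Genes that load and clear glutamate moved both ways. The vesicular transporters SLC17A8 (-0.53, SE 0.0436, adjusted p 7.47e-07) and SLC17A6 (-0.29, SE 0.0507, adjusted p 6.03e-04), which fill synaptic vesicles, fell, as did the neuronal uptake transporter SLC1A1 (-0.29, SE 0.0783, adjusted p 0.0129). SLC17A8 measured 23.2 to 26.3 CPM in siNC (median 24.6) and 16.3 to 18.5 CPM in siZCC (median 16.8), without overlap. The glial transporter SLC1A3 (0.30, SE 0.0526, adjusted p 7.46e-04) and the mitochondrial enzyme GLUD1 (0.22, SE 0.0286, adjusted p 4.29e-05) rose. Of 7 astrocyte markers, among them SLC1A3, 2 rose (SLC1A3 and ALDH1L1) and 1 fell (AQP4), and of 9 general neuron markers 1 rose (SYT1) and 3 fell (DCX, NEFM and STMN2). Their part in these results was not tested. ADARB1, which edits the GRIA2 codon shown above, fell from 24.2 to 26.8 CPM in siNC (median 24.99) to 20.3 to 23.5 CPM in siZCC (median 22.6). Its groups did not overlap (log2 fold change -0.18, SE 0.0384, adjusted p 0.00257), but the call was lost on both sides of the IL1B division (-0.16 and -0.21, adjusted p 0.0685 and 0.0723). Below the receptors, the calcium store channel ITPR1 fell by 0.40 (SE 0.0802), and the calmodulin-dependent kinases CAMK2G (0.25, SE 0.0364) and CAMK2D (0.17, SE 0.0450) rose, with adjusted p of 0.00193, 1.21e-04 and 0.0111. CAMK2A and CAMK2B, the forms most tied to mature synapses, did not pass. Within the low IL1B libraries the calls of DLG4, NPTXR, NPTX1, SLC17A6, SLC1A1 and SLC1A3 were also lost, with adjusted p from 0.0687 to 0.448, as was that of SHANK3, and within the high ones those of SLC1A1 (0.0909) and CAMK2D (0.418).

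**Figure D5:**
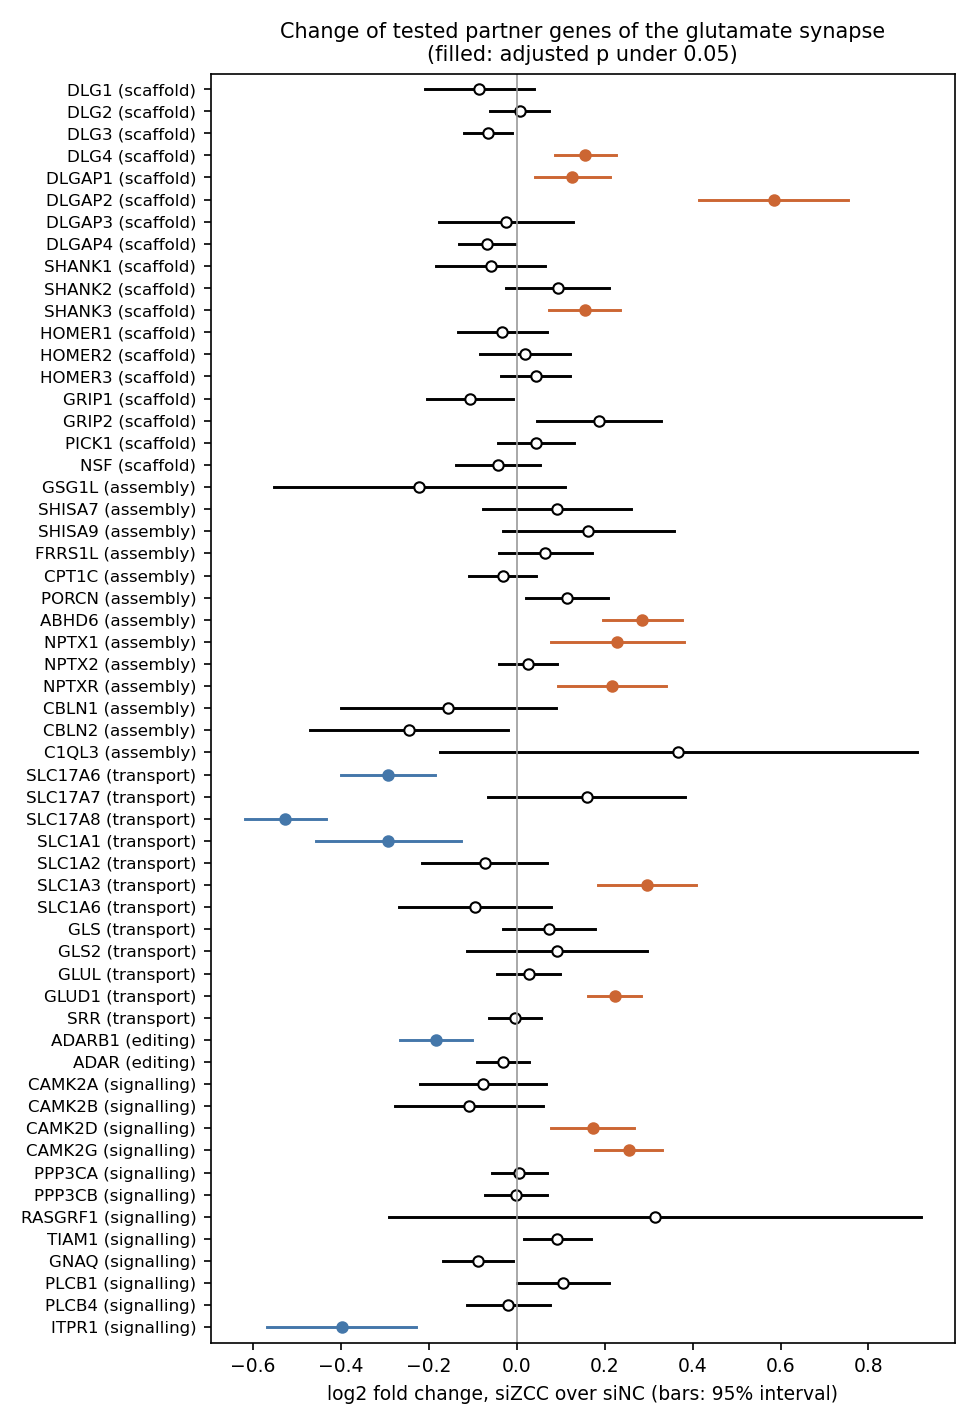
Log2 fold change of siZCC over siNC (horizontal axis) with 95% intervals for the tested partner genes (1 of the 58 is not drawn), grouped from top to bottom as scaffold, assembly, transport, editing and signalling; filled points passed an adjusted p of 0.05, blue lower and orange higher. Filled points among scaffolds and assembly genes all lie right of 0, while the open points there lie on both sides. SLC17A8 at -0.53 and DLGAP2 at 0.58 are the ends of the called range.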

How the data were processed

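RNA-seq of 12 libraries was compared, 6 siNC against 6 siZCC, grouped by sample title. The authors deposited whole-number counts per gene symbol; bcl2fastq 2.17, STAR 2.7.6a, featureCounts 2.0.1 and the build GRCh38 are named in the submitters' processing notes, while the annotation and strand setting are not given in the sources used here, so reads of overlapping genes may be shared. Per the labels' protocols, libraries were made with a directional kit (NEBNext Ultra II).

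Counts were analysed in R 4.3.3 with edgeR 4.0.16. Genes were kept by filterByExpr (about 0.0997 CPM), scaled by TMM and tested by glmQLFTest over all 24671 genes kept, with Benjamini-Hochberg adjustment and a threshold of 0.05. SE is the log2 fold change over the square root of F, and intervals are 95%. CPM values are TMM-scaled; lengths are exon unions in GENCODE v29, where 92.2% of symbols matched. The biological coefficient of variation was 6.55%; for genes of few counts, such as CACNG2, counting error adds to it.

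Members and lists were chosen with earlier results of these data known. The rule names every member, gives values by library for called members and the 3 most abundant per class, and names, of each partner sub-list, the 3 smallest p-values called in each direction. CBLN1, CBLN2, CAMK2A, CAMK2B, SHANK3, DLGAP1, DLG3, DLGAP4, GRIP1, SHANK1 and the named markers were added after their values were seen. Alternatives were DESeq2 size factors, upper quartile scaling, other filters, DESeq2 1.42.0, limma 3.58.1 voom, the replicate number as a block, thinning, GC content and length offsets, the IL1B division (as a block and separately) and leaving out each library; lengths of the longest transcript were added after seeing the data. Promoter and codon sequences were read in Python 3.11.15. Splicing, editing and reads were not analysed here. Of the partner genes, 1 is counted but not reported by name here, and some pore sequences are not reported here.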

Additional observations from a re-analysis of the deposited data

Results flagged for a closer look

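In 94 groups of 6 libraries (47 quantities: the library total, ZCCHC17, the tested receptor and auxiliary genes and the named partner genes), 2 held a library whose gap to its neighbour exceeded Dixon's 95% critical value, where chance gives about 4.7. CAMK2G was lowest in siNC replicate 6, at 124 CPM against 136 to 140.1 CPM in the other siNC libraries. Replicate 4 of siNC had the smallest control library, with a total of 90755953 counts where the others held between 109973707 and 120023356. Without siNC replicate 6 the CAMK2G call held (0.23), and without siNC replicate 4 the count of receptor and auxiliary genes called was 12. None of the 30 receptor and auxiliary genes held such a library.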

How the results depend on the processing

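The count of 12 receptor and auxiliary genes ran from 12 to 14 under the other scalings, filters, tests, block fits, thinning and GC and length offsets, and no called gene lost its call there; GRIA3, NETO1 and GRIK5 were the genes gained. Leaving out each library gave 12 or 13 genes, again with none of the 12 lost, and 15 to 19 partner genes (17 with all libraries). GC and length offsets gave 23 partner genes, 15 higher and 8 lower, and the other scalings, filters, tests and block fits 17 to 19. With 6 libraries in each side of the IL1B division, 6 receptor and auxiliary genes were called in the high libraries and 8 in the low ones, partner genes numbered 13 and 7, and all genes called 2043 and 1602, with fewer libraries in each fit; all 12 kept their direction in both. Genes near 0 changed sign: GRIN1 to -0.0099 with GC and length offsets, GRIK5 to 0.012 in the high IL1B libraries, and GRIN1 to -0.11, GRIK2 to -0.025, GRM3 to -0.041 and CACNG4 to -0.022 in the low ones. Leaving out single libraries gave ranges of -0.0101 to 0.0868 for GRIA2, -0.00427 to 0.092 for GRIN1, -0.0103 to 0.034 for GRIK2 and -0.0046 to 0.0184 for CACNG4. With lengths of the longest transcript the difference between groups in each of 9 shares kept its direction and moved by less than the spread between libraries, but the shares themselves moved: that of GRIK4 in siNC came to 21.02% and that of GRIA1 to 69.8%. Libraries of the same replicate number did not deviate together, so they were not taken as pairs (correlations from -0.077 to 0.018, with 0 of 12 closest to its own number), and with the replicate block 12 genes were called. Genes under 1 CPM are limited by depth.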

Other observations

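The spread between libraries of a group differed widely among these genes; the genes named here were picked after their values were seen. In siNC the coefficient of variation of CPM was 1.98% for GRIK4 and 2.29% for GRIA4, against 18.9% for GRIN2A and 15.9% for GRIN3B. In GRIN2A it was 5.89% in siZCC. In CACNG5 it was 3.08% in siNC and 12.2% in siZCC, where the values divided by IL1B side. A single control library, siNC replicate 6, held the highest siNC value of GRIA1 (433 CPM), GRIN2A (18.8 CPM) and GRID1 (9.80 CPM), and without it all 3 calls held, at -0.18, -0.36 and -0.42 on the log2 scale. It was also highest in siNC for GRIA4 (57.03 CPM) and GRIK3 (5.76 CPM), whose calls held without it too. The other falling genes, CACNG5 and CACNG8, were highest in siNC replicate 4. In siNC replicate 5, GRIA2 (112 CPM), GRM3 (118 CPM), GRM5 (22.7 CPM) and GRM2 (4.51 CPM) were each at the highest siNC value, while GRIA1 (356 CPM) was at its lowest there.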
